A study of Mus musculus with 30 samples.

Results

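Short V joins are heavy-chain (Igh) V rearrangements in which at most 4 bases lie between the aligned V sequence and the aligned JH4 sequence of a read, a space in which a D segment would leave little or no trace. They were chosen by position and gap alone: the prey had to align to chromosome 12 in the plus orientation of the deposited target, inside the V window (its V segments span chr12:114830805-117638385 on the target used for bone marrow and chr12:114811138-117248163 of mm9 for v-Abl cells), and the gap, counted between the last bait base and the first prey base of the read, had to be 4 or less. A negative gap is an overlap, in which the same read letters align to both sides. The rule took 26126 of the 659440 V joins of the series (3.96%), 23004 of 633477 in bone marrow and 3122 of 25963 in v-Abl cells. The gap chose the members, so its values are given as a description. At the limit itself, bone marrow held 5587 joins with a gap of 3, 7095 with 4, 8072 with 5 and 10364 with 6, and v-Abl cells held 977, 528, 820 and 955.

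A heavy-chain variable region is normally built in 2 steps. A D segment is first joined to a JH segment, and a V segment is then joined to the DJH. RAG cuts at recombination signal sequences whose spacers differ between segment types, and V and JH signals of the heavy chain carry the same spacer type, so V segments do not normally join JH directly. At the joint the opened ends can lose bases, terminal transferase can add untemplated (N) bases, mostly G and C, and short stretches of shared letters can be used for end joining. IGCR1 is the intergenic control region between the V and D segments, whose CTCF-bound sites CBE1 and CBE2 hold back V recombination, above all of the V segments nearest to D. WAPL unloads cohesin from chromatin, and its loss lets loop extrusion run farther.

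The libraries were HTGTS-V(D)J-seq, in which genomic DNA is amplified from a bait primer at JH4 and each read shows what the JH4 is joined to. The 18 bone marrow libraries came from B220+ IgM- CD43+ pro-B cells sorted from 129SV mice of 6 genotypes: WT, CBE1 mutated on both alleles (CBE1mut, CBE1-/-), CBE2 mutated (CBE2mut, CBE2-/-), both mutated (CBE12mut, CBE1&2-/-), CBE1 inverted (CBE1inv, CBE1inv/inv) and CBE2 inverted (CBE2inv, CBE2inv/inv). The other 12 libraries were made from v-Abl transformed C57BL/6 pro-B cells that carry RAG1-/-, Emu-Bcl2, a WAPL degron and a single Igh allele, and from such cells that also lack the 3' Igh CBEs (3CBEdel). All v-Abl cells received RAG1/2 by retrovirus and 3 µM STI-571 for 4 days, which arrests them. The treated groups also had 150 µM IAA and 2 µg/mL doxycycline during the last 3 days, which act on the degron. Each group had 3 libraries. The labels do not say that they came from separate mice or cultures or that a v-Abl genotype had more than 1 clone, so p-values measure the spread between these libraries, which may be technical, and a clone and its genotype cannot be told apart.

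Bone marrow libraries held 11105 to 98682 junctions, 4297 to 79819 V joins and 139 to 3389 short V joins. v-Abl libraries held 13180 to 175957, 1031 to 3554 and 109 to 448. The 95% Wilson interval of a library's short share spanned 0.280 to 1.06 percentage points in bone marrow and 2.10 to 3.82 points in v-Abl cells, and covers counting error only. Read names placed WT, CBE1mut, CBE12mut and CBE1inv on 1 flow cell and CBE2mut and CBE2inv on another, so for the last 2 the genotype and the flow cell cannot be told apart against WT. v-Abl libraries came from 3 flow cells, each with both treatments. Reads repeat: the 23004 short joins of bone marrow were 5952 distinct junctions (the same V position, JH4 position and bases between), of which 423 occurred in more than 1 library. In v-Abl cells 3122 joins were 913 distinct junctions, 98 of them in more than 1 library.

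The germline letters at the coding ends show what could be lost and what is shared. They were read from mm9 on the minus strand, with the conserved codons for the V cysteine (TGT) and the JH4 tryptophan (TGG) in capitals. JH4 spans chr12:114666725-114666778, the last 36 bases of Ighv5-2 span chr12:114816715-114816750, and those of Ighv2-2 and Ighv5-4 span chr12:114826478-114826513 and chr12:114835657-114835692. These 3 V segments lie close to D and are given because they carry the most or nearly the most short joins.
JH4 coding segment: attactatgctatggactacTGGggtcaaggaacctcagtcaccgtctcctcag
Ighv5-2 end: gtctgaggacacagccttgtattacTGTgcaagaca
Ighv2-2 end: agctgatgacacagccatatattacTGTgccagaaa
Ighv5-4 end: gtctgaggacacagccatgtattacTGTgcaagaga

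The 8 short junctions found in the most bone marrow libraries were all of Ighv5-2 or Ighv2-2, and 4 of them are given below, 5' to 3' from V to JH4, with overlap letters or inserted letters in capitals. The first was read 59 times in 7 libraries of 4 groups, shares an A between the intact Ighv5-2 end and a JH4 that lost 11 bases, and was out of frame. The second was read 48 times in 7 libraries and has a single G added between an Ighv5-2 end short of 1 base and a JH4 short of 6. The third, read 30 times in 7 libraries, was blunt by alignment and in frame. Its V alignment runs 1 base past the mm9 coding end of Ighv2-2 before a JH4 short of 2 bases. The fourth, read 25 times in 6 libraries, shares AC at a JH4 that had lost 18 bases.
Ighv5-2, overlap of 1: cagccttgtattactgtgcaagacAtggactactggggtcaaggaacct
Ighv5-2, 1 added base: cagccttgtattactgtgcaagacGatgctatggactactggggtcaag
Ighv2-2, blunt by alignment: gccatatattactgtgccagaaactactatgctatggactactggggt
Ighv5-2, overlap of 2: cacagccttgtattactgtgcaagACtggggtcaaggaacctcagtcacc

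Of the 8 short junctions found in the most v-Abl libraries, 5 held TGG before JH4, and 4 of the 8 are given in the same way. The first was read 68 times in 8 of 12 libraries and was in frame, with TGG between an intact Ighv5-2 end and a JH4 short of 1 base. The second has the same TGG after Ighv2-2 and was read 67 times in 8 libraries. The third, read 37 times in 6 libraries, is an overlap of 1 base with no added letter. In the fourth, read 28 times in 6 libraries, the bait alignment runs 2 bases past the JH4 end and had a mismatched end in 21 of the reads. Its gap was 0, although at least 9 letters in a row match a D segment in the read shown.
Ighv5-2, TGG: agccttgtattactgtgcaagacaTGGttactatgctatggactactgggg
Ighv2-2, TGG: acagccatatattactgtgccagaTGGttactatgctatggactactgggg
Ighv5-2, overlap of 1: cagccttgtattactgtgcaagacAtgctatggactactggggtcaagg
Ighv5-2, blunt by alignment: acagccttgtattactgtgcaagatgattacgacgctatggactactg

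The D segments that match those letters are Ighd2-3 (chr12:114713611-114713627) and Ighd2-4 (chr12:114708905-114708921). Of the 21 annotated D segments of mm9, 2 contain TGGTTAC and 1 contains TGATTAC. The capitals below mark TGG and the TG that opens TGATTAC.
Ighd2-3: tctatgaTGGttactac
Ighd2-4: tctactaTGattacgac

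The letters were therefore searched for a D. A D run was taken as at least 8 letters in a row of an annotated D segment, starting between the V end and JH4 and allowed to run on into JH4. JH4 alone matches a D by at most 7 letters, so letters that JH4 itself holds can count toward the run. By this measure 1723 of the 3122 short joins of v-Abl cells (55.2%, and 47.1% of distinct junctions) held a D run, against 2094 of 23004 in bone marrow (9.10%). With at least 10 letters the shares were 16.2% and 2.05%. Whether a short join can show a run depends on the JH4 letters that are left. Short joins had lost a median of 8 JH4 bases in bone marrow and 1 in v-Abl cells. These shares therefore do not compare how often a D was present. In v-Abl cells Ighd2-3 gave 57.7% of the runs, Ighd2-4 18.7% and Ighd1-1, the longest of the 3, 12.2%. In bone marrow Ighd1-1 gave 30.6%, Ighd2-4 28.7% and Ighd2-3 13.6%.

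The share with a D run varied with the gap, in part by the definition of a run. With a gap of 0 or less all letters of a run lie in the bait, and JH4 itself matches a D by at most 7. Such joins can hold a run only where the bait letters differ from those of JH4. In v-Abl cells they were in 82.1% of joins with a gap of 3, 65.6% with 2, 32.1% with 0 and 8.04% of overlaps. In bone marrow the share was 13.5% at a gap of 4 and 0.0989% among overlaps, where 2 of 2023 joins had a run. Mismatched alignment ends mattered as well: counted between ends trimmed back to at least 10 exact matches, 655 v-Abl joins (21.0%) and 2251 bone marrow joins (9.79%) left the limit of 4. Free of both were 1317 v-Abl joins (42.2%) and 19435 bone marrow joins (84.5%). A run of this length needs letters that go on into JH4, so a D trimmed to 4 or fewer letters can go unseen, and a join without a run is not shown to lack a D. The joins are therefore called short V joins here. The D sequences of the 129 strain were not used here, so a run that only a 129 D would give was missed in bone marrow.

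TGG was the largest single class of the v-Abl joins. Of 977 joins with 3 added bases, 662 had TGG (67.8%), and where JH4 had lost exactly 1 base 628 of 655 did (95.9%). These 628 joins were 20.1% of all short joins, 9.42% of the distinct ones, and occurred with 59 V segments in all 12 libraries. Among the 91712 D joins of the same libraries with that JH4 end, 33.9% carried ATGG before it, and 29.6% of longer V joins with that end carried TGG. In bone marrow 55 of 245 joins with 3 added bases at that end had TGG (22.4%), which was 0.239% of short joins, and 3.26% of D joins with that end carried ATGG.

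Inserted letters were described for each kind of cell. In bone marrow, over 19390 joins with 1 to 4 added bases, the letters were 41.8% G, 21.4% C, 19.9% T and 17.0% A, and the commonest insert at each length was G, GG, GGG and GGGG. In v-Abl cells, over 2281 such joins, they were 46.9% G, 29.9% T, 14.5% A and 8.67% C. There the commonest inserts were T, GG (37.9% of those with 2 bases), TGG and ATGG (17.0% of those with 4). The median gap of all V joins was 17 in every bone marrow library and 12 to 13 in v-Abl libraries. The median gap of D joins was 3 and -1, and 5.86% and 52.3% of D joins overlapped (means over libraries). Strain, cell type and alignment target differ between the 2 kinds of cell and cannot be told apart, so no test was made between them.

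**Figure D1:**
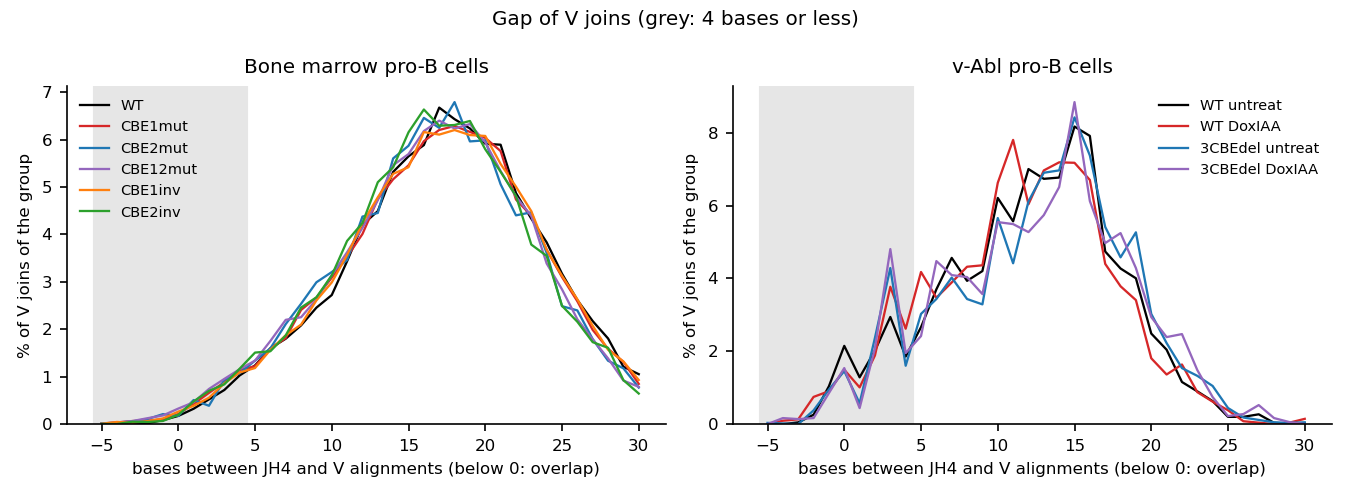
Bases between the JH4 and V alignments (x axis; overlaps are below 0) against the percentage of V joins of each group, for 6 bone marrow groups and 4 v-Abl groups of 3 libraries pooled. The bone marrow curves rise through the grey zone of short joins apart from small dips, such as CBE2mut at a gap of 2 (0.387%, after 0.507% at 1). The v-Abl curves have a peak at a gap of 3 (2.94 to 4.81% of V joins), above gaps of 2 and 4.

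In bone marrow the question was whether IGCR1 genotype changed the share of short joins. WT had the lowest mean share, 2.85% ± 0.193 (SD, n = 3), with 3.01, 2.64 and 2.92% in its libraries. CBE12mut had the highest, 4.06% ± 0.231, with 4.14, 3.80 and 4.25%. CBE1mut, with 3.63% ± 0.168, had 3.80, 3.62 and 3.47%. No library of these 2 mutants overlapped with WT.

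The other genotypes lay between. CBE2mut libraries had 3.63, 3.23 and 3.41% (mean 3.43% ± 0.199) and CBE1inv libraries 3.25, 3.46 and 3.52% (mean 3.41% ± 0.142), again all above WT. CBE2inv spread from 2.74 to 4.14% (mean 3.47% ± 0.699) and overlapped with WT. Against WT, the differences of the 4 genotypes that did not overlap were 1.21 points in CBE12mut, 0.778 in CBE1mut, 0.573 in CBE2mut and 0.556 in CBE1inv. Each had an exact two-sided permutation p of 0.1, the smallest that 3 against 3 libraries allow, and 0.2 after Benjamini-Hochberg adjustment over 8 comparisons, so none passed. CBE2inv gave an exact p of 0.3. Over all 6 genotypes, the variance of the 6 means gave a permutation p of 0.0217 (100000 draws), and p = 0.264 without the libraries numbered 2.

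The inversions did not differ from the mutations of the same element beyond their spread. CBE1inv was 0.222 points below CBE1mut (exact p = 0.2) and CBE2inv 0.0456 points above CBE2mut (exact p = 0.9). CBE12mut exceeded CBE1mut by 0.433 points (exact p = 0.2).

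Between WT and CBE12mut, short joins moved together with the rest of the gap distribution. The mean gap of all V joins was 17.1 bases in WT (17.0 to 17.2 over libraries) and 16.5 in CBE12mut (16.4 to 16.7), and joins with a gap of 28 to 30, the longest deposited, were 4.04% and 3.11% of V joins. The other genotypes did not all keep this order. The mean gap was 16.8 to 16.9 over CBE1mut libraries and 16.5 in each CBE2inv library, although CBE1mut had the higher mean short share. With V joins of a gap of 20 or less as the denominator, CBE1mut, CBE12mut and CBE1inv still lay above every WT library and CBE2mut did not. Without joins that held a D run, WT had 2.49% ± 0.208 and CBE12mut 3.76% ± 0.256, and 4 genotypes again lay above WT. Counted as distinct junctions, WT had 2.63% ± 0.0676 and CBE12mut 3.58% ± 0.229, also without overlap.

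Ighv5-2, the annotated functional V segment nearest to D, made up very different parts of these libraries: 10.8% of V joins in WT, 23.4% in CBE2mut, 13.2% in CBE2inv, 38.2% in CBE1inv, 65.0% in CBE1mut and 74.4% in CBE12mut. Within its own joins the genotypes overlapped. The short share of Ighv5-2 joins was 3.77, 2.11 and 4.36% in WT libraries (mean 3.41% ± 1.16), 4.04, 3.42 and 4.07% in CBE12mut (3.84% ± 0.366), and 3.52, 3.44 and 3.36% in CBE1mut (3.44% ± 0.0796). CBE2mut had 3.81% ± 1.14, CBE1inv 3.74% ± 0.391 and CBE2inv 3.97% ± 1.91. No genotype lay above every WT library, and the test over genotypes gave a permutation p of 0.979. WT counted only 2273 to 2962 Ighv5-2 joins a library, which limits this comparison.

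The difference was larger among V joins not assigned to Ighv5-2. These include joins outside any V segment, which were 589 of the 23004 short joins of bone marrow, and their part in the difference was not tested. Over joins assigned to a V segment, Ighv5-2 included, the mean short share was 2.84% in WT and 3.90% in CBE12mut. Without Ighv5-2, WT had 2.92, 2.70 and 2.73% short joins (mean 2.79% ± 0.120), CBE12mut 4.47, 4.86 and 4.76% (4.70% ± 0.204) and CBE1mut 4.27, 3.97 and 3.67% (3.97% ± 0.302). CBE2mut had 3.34% ± 0.0467, CBE1inv 3.2% ± 0.310 and CBE2inv 3.36% ± 0.490. The same 4 genotypes did not overlap with WT (exact p = 0.1 each), and the test over 6 genotypes gave a permutation p of 0.00012. These values were not adjusted over the alternatives tried.

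**Figure D2:**
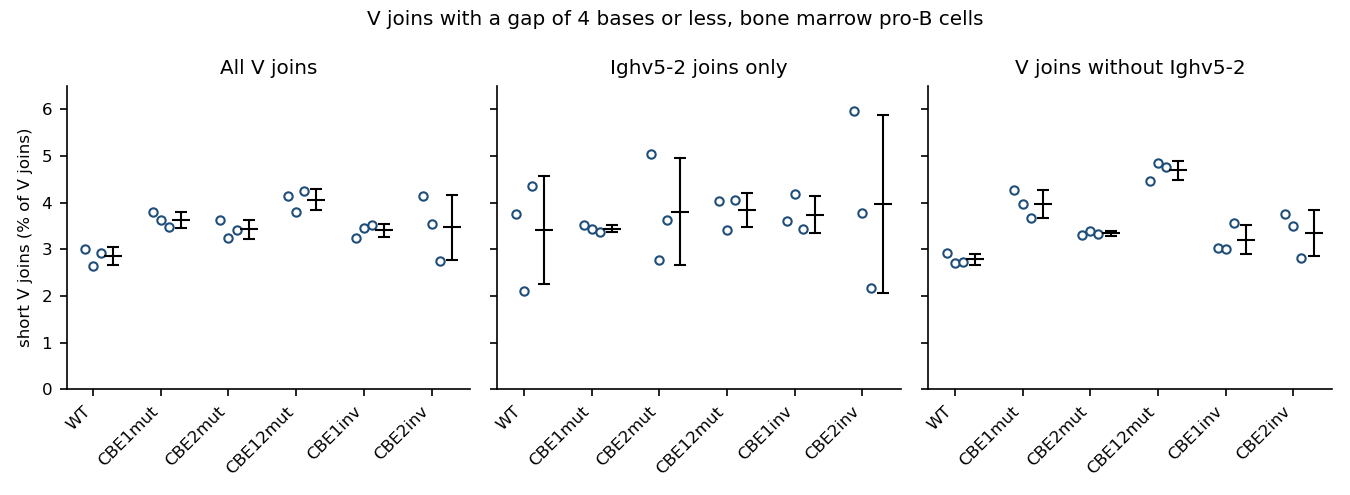
Short V joins as a percentage of V joins (y axis) in each bone marrow library (circles; bars: mean and SD of 3) for all V joins, for Ighv5-2 joins and for V joins without Ighv5-2. CBE12mut lies at 3.80 to 4.25% against 2.64 to 3.01% in WT for all joins, overlaps with WT for Ighv5-2, and lies at 4.47 to 4.86% against 2.70 to 2.92% without it.

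Overlapping ends were a small class. WT again had the lowest mean, but the other genotypes did not keep the order of the short share. In bone marrow 2023 short joins overlapped (8.79%) and 1591 were blunt (6.92%). Among the 22415 short joins assigned to a V segment 7.11% overlapped, so overlaps were more frequent among joins outside any segment. Shares and lengths by genotype are over all short joins and were not compared within assigned joins. Of the overlaps, 845 were of 1 base, 510 of 2, 311 of 3, 190 of 4 and 167 of more. WT had the lowest share of overlaps among its short joins, 2.79, 6.45 and 3.49% (mean 4.24% ± 1.94), and only 24, 34 and 27 such joins.

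The mutants had 8.50% ± 1.31 (CBE1mut), 10.8% ± 3.45 (CBE2mut) and 10.8% ± 2.35 (CBE12mut), each above every WT library (exact p = 0.1, adjusted 0.2). CBE1inv had 7.80% ± 1.67 (exact p = 0.2) and CBE2inv 4.55% ± 1.74 (exact p = 0.6). CBE2inv lay below every CBE2mut library, by 6.29 points (exact p = 0.1, adjusted 0.2). The inversions changed place when distinct junctions were counted. CBE2inv then had 6.29 to 6.34% and CBE1inv 6.21 to 7.69%, both above every WT library (3.59 to 4.74%). CBE2inv minus CBE2mut was then -2.57 points. The mean length of an overlap was 1.38 ± 0.252 bases in WT, 2.62 ± 0.638 in CBE1mut, 2.37 ± 0.146 in CBE12mut, 2.01 ± 0.270 in CBE2mut and 2.20 ± 0.416 in CBE1inv, the 4 without overlap with WT (exact p = 0.1, adjusted 0.2). CBE2inv, with 2.20 ± 0.649, overlapped with WT. Over distinct junctions the CBE1inv minus WT difference in length was 0.649 bases (exact permutation p = 0.2), so CBE1inv was then not set apart from WT.

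In v-Abl cells 398 short joins overlapped (12.7%) and 443 were blunt (14.2%), and 247 of the overlaps were of 1 base. The share of overlaps was 11.4% ± 3.01 in untreated WT, 15.0% ± 4.45 in treated WT, 12.3% ± 5.52 in untreated 3CBEdel and 11.5% ± 3.49 in treated 3CBEdel, all overlapping (exact p of 0.3 or more). Mean overlap length did not separate the groups either, at 1.39 ± 0.164, 2.30 ± 1.02, 1.36 ± 0.134 and 1.71 ± 0.357 bases.

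By mean share the other gap classes had an even order in WT and CBE12mut bone marrow, and not in CBE2mut or in v-Abl cells. In CBE2mut libraries 16.3, 12.2 and 13.1% of short joins had 1 base and 9.58, 20.1 and 10.4% had 2. In WT bone marrow the share of short joins rose with the gap from 5.96% ± 3.22 blunt and 11% ± 2.7 with 1 base to 35.4% ± 3.37 with 4 bases, and CBE12mut ran from 7.89% ± 1.21 to 28.5% ± 3.13. In untreated WT v-Abl cells 18.7% ± 1.9 were blunt, 10.4% ± 4.34 had 1 base, 25% ± 1.84 had 3 and 16.4% ± 4.19 had 4. Joins with 3 bases reached 35.6% ± 4.57 in untreated and 38.4% ± 6.67 in treated 3CBEdel.

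Long overlaps had inexact ends more often than not. All 10 v-Abl overlaps of more than 4 bases, and 87 of the 167 in bone marrow, had a mismatched alignment end. The longest shared 12 letters, ATTACTGTGCAA, which the V end and the mismatched JH4 alignment both claim. It was read 16 times in 2 libraries of bone marrow and is given with those letters in capitals. For contrast, an overlap of 4 bases with exact ends, read 36 times in 1 library, joined Ighv5-1 (35 bases lost) to a JH4 that had lost 27 bases and its tryptophan codon.
Ighv5-2, overlap of 12: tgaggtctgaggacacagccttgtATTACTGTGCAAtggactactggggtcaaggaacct
Ighv5-1, overlap of 4: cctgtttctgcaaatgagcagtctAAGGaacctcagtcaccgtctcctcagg

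**Figure D3:**
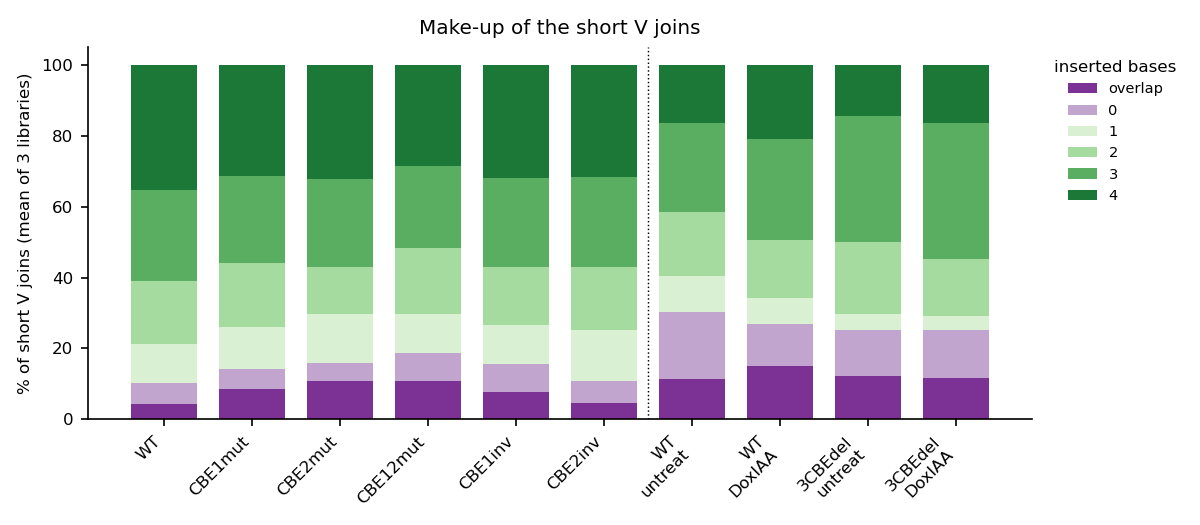
Make-up of the short V joins by number of inserted bases (colours; overlap means shared letters), as the mean of 3 libraries in each group (y axis: % of short V joins). WT bone marrow has the smallest overlap class (4.24%), 4 inserted bases are the largest class in every bone marrow group, and 3 inserted bases in every v-Abl group.

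End trimming is read from the same alignment ends as the gap that chose the members, so short and longer V joins are described side by side with no test. In bone marrow JH4 had lost 8.88 ± 1.75 bases on average in short joins and 4.84 ± 0.141 in longer ones (means of library means ± SD, n = 18), and more in short joins in 18 of 18 libraries. Pooled, the median loss was 8 bases in short joins, 4 in longer V joins and 4 in D joins, and more than 10 bases were gone in 34, 8.69 and 10.6%. The tryptophan codon was lost in 12.7% of short joins, 1.24% of longer V joins and 2.21% of D joins.

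The V side was trimmed farther as well. Ighv5-2 had lost 7.29 ± 3.48 bases in short joins and 1.95 ± 0.146 in longer ones, more in 18 of 18 libraries. The cysteine codon was lost in 13.5% ± 4.76 of short and 3.76% ± 1.04 of longer joins, more often in 18 of 18 libraries.

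Short v-Abl joins had the opposite JH4 pattern. JH4 had lost 2.00 ± 0.874 bases in short and 3.08 ± 0.244 in longer joins, less in 11 of 12 libraries. The median loss was 1 base in short joins and 2 in longer V joins and in D joins. The bait alignment ran past the JH4 end in 20.1% of short joins, 2.15% of longer V joins and 2.42% of D joins. Ighv5-2 had lost 1.59 ± 0.613 and 1.41 ± 0.228 bases, and the cysteine codon was lost in 3.94% ± 3.27 and 2.23% ± 0.975, more often in short joins in 9 of 12 libraries.

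**Figure D4:**
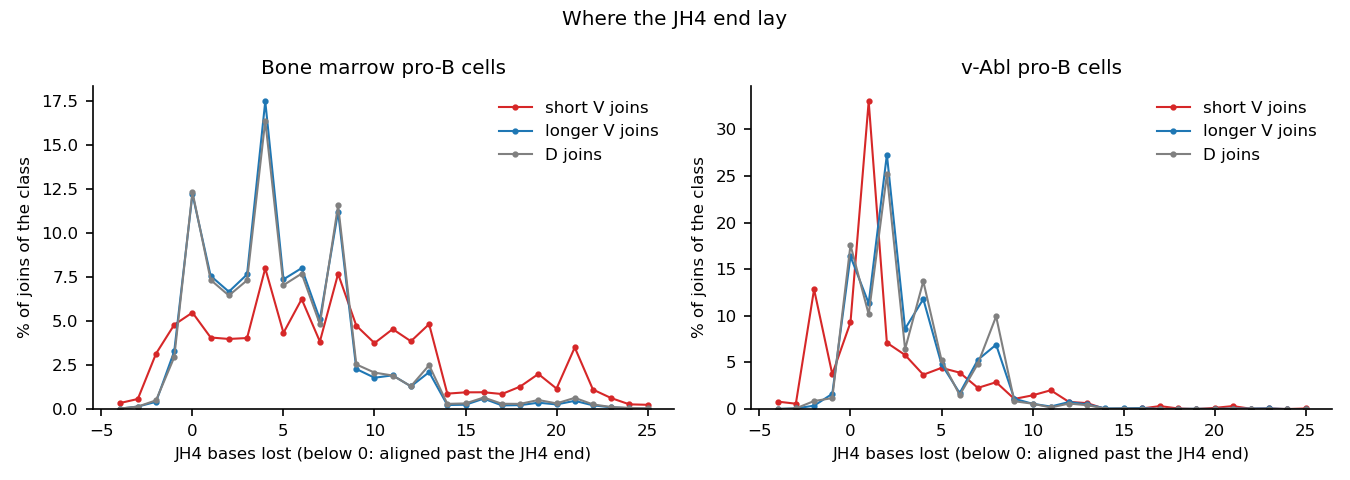
JH4 bases lost (x axis; below 0 the bait aligned past the JH4 end) against the percentage of joins of each class, pooled over the libraries of each kind of cell. In bone marrow the short joins extend far beyond 10 lost bases while longer V joins and D joins follow nearly the same curve, and in v-Abl cells the short joins peak at 1 lost base.

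The trimming of short joins differed between genotypes together with V usage. The mean JH4 loss of short joins was 7.12 ± 0.611 bases in WT (6.64 to 7.80 over libraries) and 11.6 ± 1.1 in CBE12mut (10.4 to 12.6). It was 9.65 ± 1.03 in CBE1mut, 9.01 ± 0.550 in CBE2mut, 8.46 ± 1.21 in CBE1inv and 7.46 ± 1.36 in CBE2inv. The 3 mutants did not overlap with WT (exact p = 0.1 each), and the permutation test over 6 genotypes gave p = 0.00169. Among longer joins the group means ran only from 4.67 in CBE2mut to 4.95 in CBE1mut, with 4.73 in WT.

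The cysteine codon was lost in 8.46% ± 1.77 of short joins of WT, 18.5% ± 1.82 of CBE1mut, 19.7% ± 2.16 of CBE12mut, 14.3% ± 0.409 of CBE1inv, 10.9% ± 1.05 of CBE2mut and 9.30% ± 3.17 of CBE2inv (permutation p over genotypes = 5e-05). All but CBE2inv lay above every WT library.

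Within the short joins of Ighv5-2 the genotypes overlapped. JH4 had lost 10.1 ± 3.4 bases in WT, with 48 to 129 such joins a library, 10.3 ± 1.07 in CBE1mut and 10.9 ± 1.02 in CBE12mut (permutation p over 6 genotypes = 0.869). The cysteine codon was lost in 15.6% ± 13.7 of them in WT, 20.1% ± 3.13 in CBE1mut and 20.8% ± 2.96 in CBE12mut (p = 0.559 over genotypes by permutation).

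The short joins not assigned to Ighv5-2 include those outside any V segment, whose part in the values was not tested. In them JH4 had lost 6.59 ± 0.241 bases in WT, 8.74 ± 1.38 in CBE1mut, 8.89 ± 0.653 in CBE2mut and 12.9 ± 3.37 in CBE12mut. These 3 mutants lay above every WT library (permutation p over genotypes = 0.00046). The cysteine codon was lost in 7.52% ± 1.49 of them in WT, 15.9% ± 1.65 in CBE1mut and 16.4% ± 2.1 in CBE12mut (permutation p over genotypes = 0.00122). In the middle one of 3 equal zones of the V window the JH4 loss was 6.69 ± 0.26 bases in WT and 5.94 ± 1.65 in CBE12mut (permutation p over genotypes = 0.511), with 154 to 210 and 57 to 119 joins a library. The cysteine codon was lost there in 8.14% ± 2.41 of WT joins and in fewer of CBE12mut, 0.595% ± 1.03 (exact p = 0.1, permutation p over genotypes = 0.0243), the opposite order to that of all short joins.

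In the near zone, which holds Ighv5-2, JH4 had lost 7.71 ± 0.737 bases in WT, 10.1 ± 1.03 in CBE1mut and 11.8 ± 1.13 in CBE12mut, both above every WT library (permutation p over genotypes = 0.0216). The cysteine codon was lost in 9.12% ± 3.31, 19.8% ± 2.12 and 20.4% ± 2.26 (permutation p over genotypes = 0.00029). The genotypes also differed in how much of their short joins the near zone and Ighv5-2 gave, and the part of V usage in the pooled trimming values cannot be read from these subsets alone.

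A D run was in 12.9% ± 3.12 of short joins of WT and 7.45% ± 1.08 of CBE12mut (exact p = 0.1), with a permutation p of 0.416 over genotypes. A run needs JH4 letters, and the mean JH4 loss of short joins was 7.12 bases in WT and 11.6 in CBE12mut. The part of JH4 loss in the share of D runs was not tested. These measures by genotype, and their values within subsets of V segments, were added after the shares were known.

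Among joins with a frame call, the in-frame share of short and longer joins did not differ beyond the spread. In bone marrow a frame was called for 77.3 to 89.8% of short and 94.7 to 97.5% of longer joins a library. The other joins are left out of these shares. Of called joins, 43.2% ± 11.1 of short and 42.8% ± 9.18 of longer ones kept the V cysteine and the JH4 tryptophan in 1 frame (permutation p = 0.749, higher in 12 of 18). Within short joins the in-frame share was 47.5% ± 8.16 in WT, 34.6% ± 3.17 in CBE1mut and 29.7% ± 2.05 in CBE12mut. Longer joins had 49.6% ± 1.56, 34.3% ± 1.94 and 29.6% ± 1.1 in the same order of genotypes. Of in-frame joins, no stop codon lay between in 97.6% ± 1.53 of short and 79.6% ± 6.12 of longer joins, where a longer stretch holds more codons. The pooled median number of residues between cysteine and tryptophan in all in-frame joins, open or not, was 8 in short and 13 in longer joins. In v-Abl cells it was 9 and 12, with 31.7% ± 4.38 and 33.0% ± 3.10 in frame (permutation p = 0.342) and 98.4% ± 2.52 and 78.0% ± 3.35 of those open.

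The V window was cut into 3 zones of equal length, near, middle and far from D. In bone marrow short joins were 3.64% ± 0.475 of V joins in the near zone and 2.59% ± 0.888 in the far zone, a difference of 1.05 points that was positive in 14 of 18 libraries (sign-change permutation p = 0.00043). Pooled, the near, middle and far zone had 3.80, 2.93 and 2.62% and JH4 had lost 10.4, 6.44 and 5.38 bases on average. In WT alone the 3 differences averaged 0.671 points and 2 were positive. The near zone held 62.5% ± 5.66 of the short joins of WT and 96.4% ± 0.779 of those of CBE12mut. Of all V joins it held 15145 of 28572, 11669 of 19992 and 15792 of 26546 in the WT libraries. In the CBE12mut libraries it held 61169 of 63432, 57797 of 60253 and 76437 of 79819, much the same share as of the short joins.

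Within the middle zone, which does not hold Ighv5-2, WT had 2.17, 2.64 and 2.69% short joins and CBE12mut 3.54, 3.66 and 5.04%, without overlap. In the far zone the ranges were 1.22 to 4.08% and 1.67 to 3.99%. In the near zone they were 2.75 to 3.37% and 3.81 to 4.26%. In the 10 v-Abl libraries with at least 50 V joins in each outer zone, the near zone had 11.5% ± 2.07 and the far zone 11.1% ± 4.73 (permutation p = 0.821, positive in 5 of 10).

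V joins could be assigned to 152 V segments in bone marrow, of which 8 gave no short join, and to 118 in v-Abl cells, 16 without one. Among the 111 bone marrow segments with at least 300 V joins the median short share was 3.00%. Ighv5-2 gave 12065 of its 324668 joins (3.72%), which was 52.4% of all short joins. Ighv2-2, next to it, gave 2308 (4.29%), the pseudogene Ighv5-1 978 (4.15%) and Ighv5-4 549 (3.77%). Ighv2-3 had 247 (3.42%), Ighv2-9 238 (3.12%) and Ighv5-17 187 (4.30%).

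Shares of segments were pooled over genotypes, whose means differ and which supply different parts of each segment: CBE12mut gave 151408 of the 324668 joins of Ighv5-2. In WT alone the share was 3.51% for Ighv5-2, 3.8% for Ighv2-2, 2.74% for Ighv5-4 and 2.43% for Ighv2-9. Of the 10 segments nearest to D, 8 lay above the pooled median, as did 9 of the 35 Ighv1 segments with at least 300 joins. All 6 segments named as Ighv2 did too, but of 9 unnamed segments whose closest match is an Ighv2 segment 5 lay below it (1.35 to 5.67% over the 9). No test of family was made. The highest share was 5.67% in an unnamed V at 115073093 of the bone marrow target (40 of 706 joins, 8 distinct), followed by Ighv11-1 with 5.34% (56 of 1049). The lowest lay in the far zone: Ighv1-81 with 0.226% (1 of 443 joins) and an unnamed V at 116963515 with 0.505% (3 of 594). Ighv1-37 of the middle zone followed with 0.654% (2 of 306). These ends of the order rest on few distinct joins.

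In v-Abl cells 16 segments had at least 300 joins, with a median short share of 11.1%. Ighv5-2 gave 834 short joins of 6121 (13.6%), Ighv2-2 414 of 2890 (14.3%), Ighv5-4 148 of 1346 (11%) and Ighv2-3 108 of 912 (11.8%). The far segment Ighv1-70 gave 82 of 537 (15.3%), where bone marrow had 3 of 354 (0.847%). Ighv5-1 was highest, with 59 of 325 (18.2%, 14 distinct), and Ighv1-78 lowest, with 15 of 304 (4.93%).

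Segment by segment, few differences between genotypes could be called. Of the 69 bone marrow segments with at least 10 V joins in every library, limma on the log2 odds of a short join called 3 higher in CBE2mut than in WT (4.35% of those tested) and 2 higher in CBE12mut (2.9%), with none lower. In CBE1mut, CBE1inv and CBE2inv against WT it called 0% (limma, 10, 4 and 10 segments at an unadjusted p under 0.05). The called ones were thinly filled. Ighv5-12 had 15 of 341, 6 of 391 and 9 of 424 short joins in WT and 0 of 57, 9 of 52 and 24 of 155 in CBE12mut, the last from 0, 2 and 4 distinct junctions (log2 odds change 2.59, SE 0.50, limma adjusted p = 0.0017). A CBE12mut library thus had none, and the groups overlap. An unnamed V at 116065104 had 1.55, 0.844 and 2.60% in WT and 8.18, 5.68 and 9.77% in CBE12mut without overlap (log2 odds change 2.22, limma adjusted p = 0.0464).

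Ighv15-2 had 17 of 508, 11 of 307 and 6 of 367 short joins in WT and 30 of 221, 0 of 51 and 6 of 95 in CBE2mut (log2 odds change 2.04, limma adjusted p = 0.0314). The other 2 called in CBE2mut, unnamed V segments at 115588829 and 115810681, each had 1 CBE2mut library without a short join. The segments with the most joins were not called: for Ighv2-2 the WT libraries had 4.26, 3.37 and 3.72% and the CBE12mut libraries 5.01, 5.06 and 4.16%. For Ighv5-1 they had 7.44, 5.83 and 1.53% against 4.14, 2.42 and 4.53%. In v-Abl cells 4 segments could be tested and limma called 0% in each of 4 comparisons (none at an unadjusted p under 0.05).

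In v-Abl cells the questions were whether treatment or loss of the 3' CBEs changed the short share, and neither did beyond the spread. Untreated WT libraries had 9.33, 13.7 and 11.6% (mean 11.5% ± 2.19) and treated ones 11.5, 9.94 and 16.6% (12.7% ± 3.5). Untreated 3CBEdel libraries had 11.7, 13.9 and 8.46% (11.3% ± 2.73) and treated ones 14.7, 10.8 and 10.6% (12% ± 2.29). All 4 groups overlap. Treatment changed the share by 0.915 points on average (exact permutation within genotype, p = 0.565) and the treatment effects of the 2 lines differed by -0.497 points (exact permutation p = 0.855).

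The source of the joins changed far more than their share. Ighv5-2 gave 53.4% ± 2.80 of the short joins in untreated WT and 5.60% ± 4.45 in treated WT, as it gave 44.7% and 3.61% of all V joins. The near zone gave 97.3% ± 2.88 and 31.1% ± 4.95. In 3CBEdel the near zone gave 94.9% ± 1.96 untreated and 34% ± 4.73 treated. All V joins shifted alike. The near zone held 2247 of 2368, 2511 of 2646 and 3278 of 3554 V joins in untreated WT libraries. It held 599 of 2039, 1009 of 2906 and 832 of 2693 in treated ones. In 3CBEdel it held 2203 of 2357, 2046 of 2197 and 1399 of 1561 untreated, and 469 of 1317, 460 of 1294 and 390 of 1031 treated.

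D runs and reading frame differed between the lines, both looked at after the shares were known. A D run was in 46.6, 52.3 and 43.3% of short joins of untreated WT (mean 47.4% ± 4.57) and in 58.3, 52.6 and 55.8% of treated WT (55.6% ± 2.86). In 3CBEdel it was in 60.9, 59.0 and 53.8% untreated (57.9% ± 3.67) and 76.7, 57.9 and 59.6% treated (64.7% ± 10.4). 3CBEdel exceeded WT by 9.82 points (exact permutation within treatment, p = 0.01, adjusted over 6 measures 0.03). On the flow cell that held both lines, 3CBEdel libraries had 57.9 to 76.7% and WT libraries 43.3 to 55.8%. Treated exceeded untreated by 7.49 points (exact p = 0.045, adjusted 0.27). Short joins without a D run were 6.03% ± 0.903 and 5.62% ± 1.5 of V joins in WT and 4.73% ± 0.9 and 4.08% ± 0.594 in 3CBEdel (exact p = 0.035, adjusted 0.07).

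Where a frame was called, the in-frame share of short joins was 30.7% ± 0.549 and 26.9% ± 3.05 in untreated and treated WT. It was 33.6% ± 1.82 and 35.6% ± 5.42 in 3CBEdel. 3CBEdel was higher by 5.77 points (exact permutation within treatment, p = 0.005, the smallest that 400 relabelings allow, adjusted 0.03). On the shared flow cell the libraries ran from 31.1 to 34.1% in 3CBEdel and from 27.1 to 31.2% in WT, and overlapped. TGG joins were 15.2% ± 4.43, 20.1% ± 3.34, 23.8% ± 0.426 and 22.8% ± 6.17 of short joins in the same order (3CBEdel against WT, exact p = 0.055, adjusted 0.0825). Recurrent junctions bear on these values, since 33.0% of v-Abl short joins came from junctions seen in more than 1 library. The part of recurrence in the difference between lines was not tested.

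**Figure D5:**
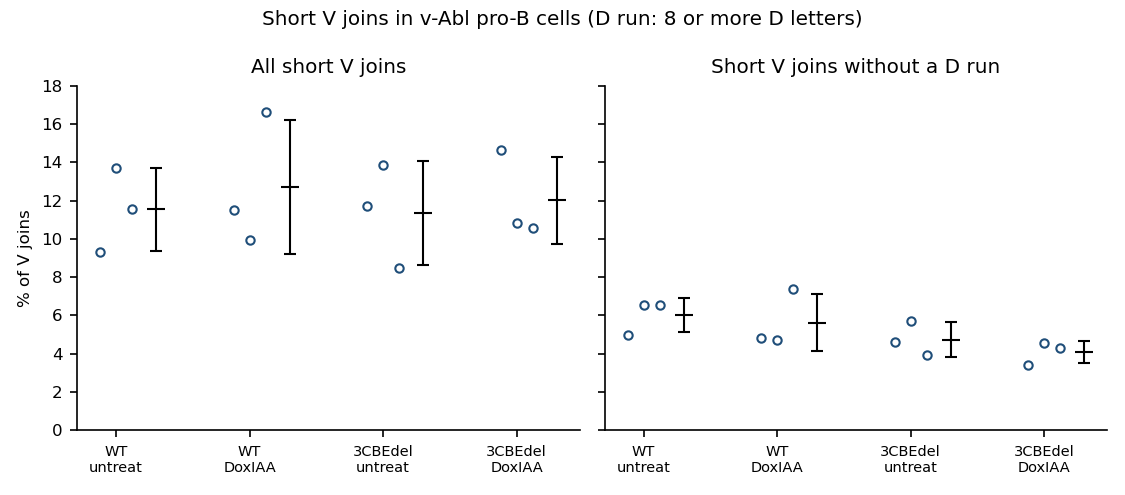
Short V joins as a percentage of V joins (y axis) in each v-Abl library (circles; bars: mean and SD of 3), for all short joins and for those without a D run of 8 or more letters. All 4 groups overlap in the left panel (8.46 to 16.6%); without D runs the means fall from 6.03% in untreated WT to 4.08% in treated 3CBEdel.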

How the data were processed

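HTGTS-V(D)J-seq junctions were analysed from 30 libraries. Per the file headers, the deposited files hold 1 line per read with alignment positions (other values, no count unit), and per the submitters' processing notes Bowtie2 (version not stated) and mm9 were used; the target, per the labels, was mm9 for v-Abl cells and mm9 with a 129 Igh sequence for bone marrow. The duplicate and mapping-quality flags are 0 on every deposited line, and gaps stop at 30. Junctions were tabulated in Python 3.11.15 (pandas 2.3.3, SciPy 1.17.1). V segments (within 100 bp) came from mm9 annotation and, in bone marrow, from junction clusters named with BLAST 2.17.0 at 95% identity or more, else by position on that target. limma 3.58.1 (R 4.3.3) fitted log2 odds with a pseudocount of 0.5, inverse-variance weights and no block, with a threshold of 0.05 after Benjamini-Hochberg adjustment over the segments of a contrast, and was tested on simulated data. Other tests were exact permutations, or 100000 draws. A planned sign-change test of end trimming in short against longer joins is not reported, since both are read from the alignment ends that set the gap. Named were 6 fixed segments, the 10 with most short joins, the 5 highest and 5 lowest shares and called segments; not all are given. Alternatives changed the unit of counting, gap limit, V set, ends, filter and replicates. The members, lists and tests were chosen with earlier results of these data known. Replicate numbers did not pair libraries. Sequences came from mm9 and the deposited reads; segment names from RefSeq and the annotation.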

Additional observations from a re-analysis of the deposited data

How the results depend on the processing

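The 4 bone marrow genotypes above every WT library stayed so with distinct junctions, gap limits of 0 and 2, annotated segments, no Ighv5-2, bait ends inside JH4, exact ends and no D runs. With a gap limit of 8 CBE2mut overlapped with WT (exact p = 0.4) and CBE2inv did not (exact p = 0.1). The test over genotypes was lost with Ighv5-2 only (variance 0.0426, permutation p = 0.979), in the near zone only (0.0769, p = 0.314) and without replicate 2 (variance 0.134 to 0.147 over the 3 omissions, p up to 0.264). Values near 0 changed sign, none past a threshold; the cause was not tested. CBE1inv minus CBE1mut became 0.0130, 0.2996 and 0.00244 points (gap of 0 or less, Ighv5-2 only, near zone only). CBE2inv minus CBE2mut became -0.167, -0.0338 and -0.117 (gap of 0 or less, bait inside JH4, exact ends), and its mean overlap length -0.0453 (distinct junctions). Treated minus untreated became -0.0351, -0.366 and -0.401 in WT (gap limits of 0 and 2, no D runs). In 3CBEdel it became -0.284, -0.574, -0.740, -0.216 and -0.645 (gap limit of 2, near zone, bait inside JH4, exact ends, no D runs). Untreated 3CBEdel minus WT became 1.37, 0.0351 and 0.155 (no Ighv5-2, gap of 20 or less, shared flow cells). The pooled treatment effect became -0.325, -0.167 and -0.523 (gap limit of 2, near zone, no D runs), and the difference of effects 0.150 and 0.0828 (gap limits of 0 and 2). The v-Abl difference in lost cysteine codons was 2.04 points over distinct junctions.

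Called segments were fragile. CBE2mut against WT gave 1 with a minimum of 5 joins, 0 with distinct junctions, 0 with limma trend and 1 without unnamed segments. CBE12mut gave 1, 0 and 1 with the minimum of 5, trend and no unnamed segments. Against WT, CBE2inv gave 2 with a minimum of 20 and 1 with the replicate block, CBE12mut against CBE1mut gave 1 with a minimum of 20, and treated 3CBEdel against treated WT gave 1 with trend.

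Leaving out each replicate in turn gave short-share differences of -0.287 to 0.410 points for CBE2inv minus CBE2mut, -0.804 to 2.54 for treated minus untreated WT and -0.781 to 1.93 for 3CBEdel, and -1.46 to 1.26 and -2.07 to 1.28 for 3CBEdel minus WT untreated and treated. Overlap shares ran from -0.697 to 1.41 (CBE2inv minus WT), -1.46 to 0.199 (CBE1inv minus CBE1mut), -3.80 to 1.60 (3CBEdel treated minus untreated) and -1.51 to 3.89 (untreated 3CBEdel minus WT). Overlap lengths ran from -0.0947 to 0.544 (CBE2inv minus CBE2mut), -0.536 to 0.0942 (CBE12mut minus CBE1mut) and -0.0940 to 0.0629 (untreated 3CBEdel minus WT). The treatment effect ran from -0.425 to 3.08, the difference of effects from -1.12 to 0.731, the v-Abl near minus far difference from -0.504 to 2.03 and the bone marrow in-frame difference from -1.38 to 1.27. Called segments ran from 0 to 2 in CBE2mut and 0 to 1 in CBE12mut.

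Same-numbered libraries did not deviate together (no contrast had all correlations over 0.1), so the replicate block is given here only. With the replicate block the CBE12mut minus WT difference stayed at 1.21 points with an exact sign-change p of 0.25, the smallest that 3 pairs allow, and 2 segments were called in CBE2mut and 3 in CBE12mut. A filter on mapping quality was not run, since that flag is constant. In WT, 24 to 34 overlapping joins a library limit the overlap values, as do 2273 to 2962 Ighv5-2 joins.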
